A study of Mus musculus with 21 samples.

Results

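Among 14 BYL719-treated mammary tumours of mice, 7 carried more skeletal muscle RNA than the other 7. The classes were chosen by a measured value, the level of muscle creatine kinase (Ckm): a tumour was muscle-rich when Ckm exceeded 50 CPM, counts divided by the tumour's total count and scaled to 1e6. That put relapse 1, 2, 3, 5, 6 and 7 and stable 5 in the muscle-rich class, and relapse 4 and stable 1, 2, 3, 4, 6 and 7 in the muscle-poor class. The 14 tumours are part of a series of 21, in which 7 more tumours received vehicle. Because Ckm chose the classes in the same libraries, differences between them are given below as levels and sizes without a test. Tests were run on the spread of Ckm inside each class and on the labelled groups. The threshold did not use the spread inside a class, but it is a spread of the same gene in the same libraries. Slopes on Ckm therefore describe genes that vary with Ckm and are no independent support for the division.

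All tumours, vehicle tumours included, were of the genotype WAP-Cre/PIK3CA-H1047R: Cre recombinase under a milk protein promoter turns on an activated catalytic subunit of PI3K in mammary epithelium. The vehicle was DMSO, and BYL719 (alpelisib) is an inhibitor of PI3K-alpha. The titles label 7 treated tumours relapse and 7 non-relapse, the latter called stable here after the series' design text. Age, dose and time of collection were not given in the sources used here. Polyadenylated RNA was taken from whole ground tumours, so host tissue lying in or beside a tumour was sequenced with it, and in such bulk samples fewer cells of a type and less RNA per cell cannot be told apart.

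Skeletal muscle fibres are long multinucleated cells packed with sarcomeres, the repeating units of actin and myosin filaments that shorten when calcium leaves the sarcoplasmic reticulum. Fast fibres burn glycogen through creatine kinase and muscle glycolytic isozymes, whereas slow fibres use oxidative metabolism and their own myosin and troponin genes. Muscle lies under the mouse mammary fat pad and in the panniculus of the skin, and it can also be repaired by satellite cells that pass through embryonic myosin genes.

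Total counts ran from 16840268 to 21431465 in muscle-rich and from 13337848 to 24648463 in muscle-poor tumours. The classes nearly repeated the labels, with 6 relapse tumours and 1 stable tumour against 1 relapse and 6 stable, so class and label cannot be told apart over most of the tumours. Each title also holds a numeric code that is left unexplained. The 14 tumours held 9 codes, 6 in the muscle-rich and 4 in the muscle-poor class, with 1 code in both. Some tumours share a code, and what a shared code means is not stated. The tests took each tumour as independent, so their p-values may be too small if tumours of 1 code are alike. Relapse 4 stood apart from the other relapse tumours in muscle genes, and stable 1 from the other stable tumours in keratinocyte and neutrophil genes. Levels below are CPM after library totals were scaled by TMM factors.

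The members nearest the threshold were relapse 5 at 72.9 and relapse 7 at 81.0 CPM of total counts inside it, and stable 4 and stable 6, both at 30.7 CPM, outside it. On the TMM scale the lowest, median and highest Ckm levels were 70.8, 143 and 344 CPM in muscle-rich and 0.399, 16.8 and 30.1 CPM in muscle-poor tumours. Ckm is the enzyme that regenerates ATP from creatine phosphate in muscle, and its gene lies at chromosome 7, 19411094 to 19421583 (GRCm38). The fast myosin heavy chain Myh4 stood at 400.5, 1125 and 2431 CPM in muscle-rich tumours and at 5.59, 115 and 338 CPM in muscle-poor ones. Its classes did not overlap, with a log2 difference of 3.19 ± 0.81 (± standard error here and below). Skeletal actin Acta1 stood at 481, 542 and 1016 against 154, 245 and 364 CPM, again without overlap, but its difference was 1.52 ± 0.23. Both other markers were therefore higher in every muscle-rich tumour, as the class names state. Acta1 was less sharp, since it stayed at 132 to 289.7 CPM in vehicle tumours, 5 of which had Ckm under 0.5 CPM. Acta1 shares sequence with other actin genes, and the handling of reads with several matches is not stated in the labels.

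**Figure D1:**
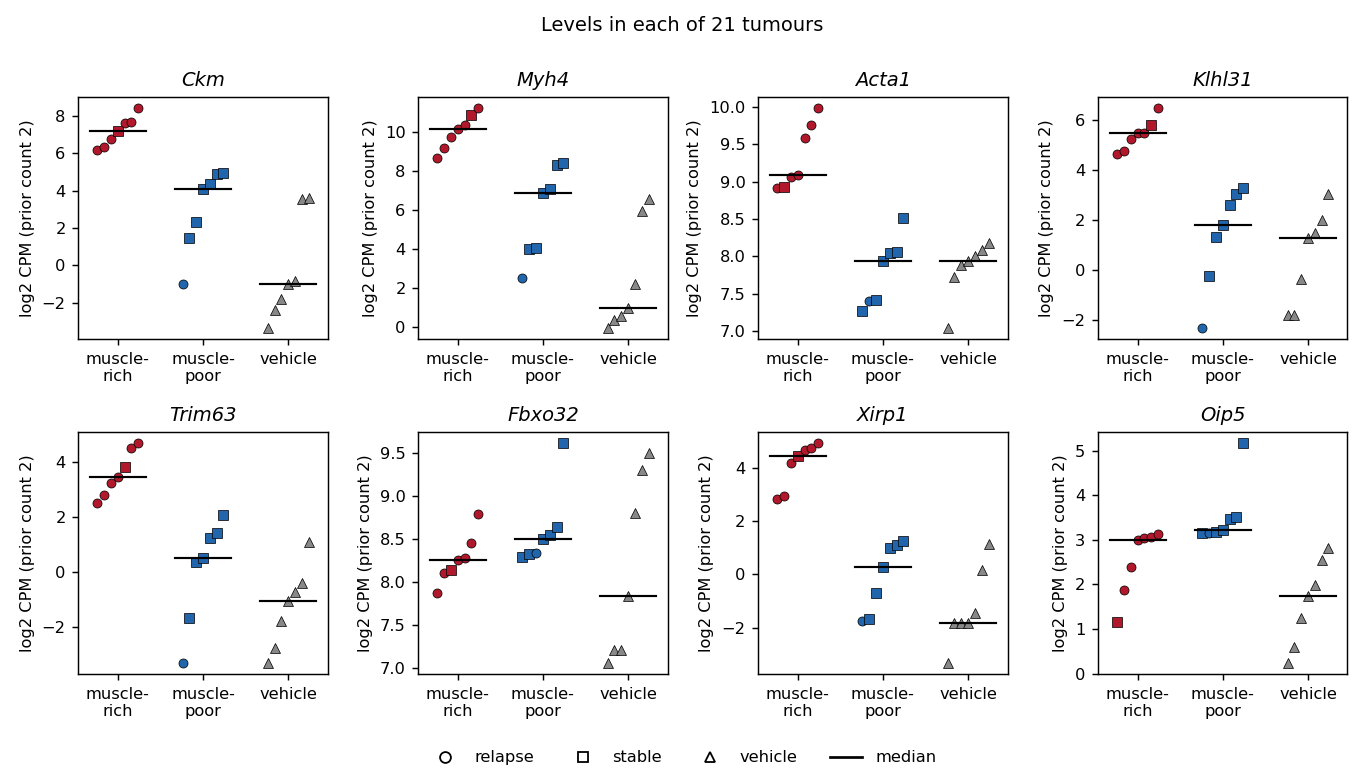
Each panel plots 1 gene as log2 CPM (prior count 2), with a point for each of 21 tumours in the muscle-rich, muscle-poor and vehicle columns and a line at the median; circles are relapse, squares stable and triangles vehicle tumours. The muscle-rich points lie above all muscle-poor points for Ckm, Myh4, Acta1, Klhl31, Trim63 and Xirp1, and below them for Oip5, whereas Fbxo32 overlaps.

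Promoter sequence is shown for 4 genes that stand for the muscle-rich pattern: the gene that set the classes, its fast myosin, an atrophy ligase, and the gene outside the muscle lists that followed Ckm most closely within the classes. Each run is 1 RefSeq window (GRCm38.p6), from 250 bases before the start to 50 after it, and capitals mark CAGCTG, a form of the E-box CANNTG that myogenic regulatory factors bind.
Ckm, chr7:19410844-19411143, strand +: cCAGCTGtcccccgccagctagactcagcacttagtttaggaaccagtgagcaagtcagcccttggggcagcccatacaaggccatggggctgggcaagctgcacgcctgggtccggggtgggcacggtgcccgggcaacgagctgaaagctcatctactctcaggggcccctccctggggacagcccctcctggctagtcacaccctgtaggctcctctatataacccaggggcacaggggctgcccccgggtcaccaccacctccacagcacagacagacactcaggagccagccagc
Myh4, chr11:67237562-67237861, strand +: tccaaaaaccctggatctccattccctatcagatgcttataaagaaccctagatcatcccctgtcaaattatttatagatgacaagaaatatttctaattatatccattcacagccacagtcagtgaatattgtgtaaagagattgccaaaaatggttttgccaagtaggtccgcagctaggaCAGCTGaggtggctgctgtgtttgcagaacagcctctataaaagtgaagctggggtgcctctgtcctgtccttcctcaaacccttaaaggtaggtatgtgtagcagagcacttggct
Trim63, chr4:134314870-134315169, strand +: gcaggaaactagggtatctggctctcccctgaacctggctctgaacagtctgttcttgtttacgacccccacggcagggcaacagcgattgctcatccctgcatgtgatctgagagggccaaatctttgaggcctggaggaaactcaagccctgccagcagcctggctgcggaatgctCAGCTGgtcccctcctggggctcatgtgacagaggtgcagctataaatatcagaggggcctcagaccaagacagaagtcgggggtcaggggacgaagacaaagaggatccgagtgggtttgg
Klhl31, chr9:77636482-77636781, strand +: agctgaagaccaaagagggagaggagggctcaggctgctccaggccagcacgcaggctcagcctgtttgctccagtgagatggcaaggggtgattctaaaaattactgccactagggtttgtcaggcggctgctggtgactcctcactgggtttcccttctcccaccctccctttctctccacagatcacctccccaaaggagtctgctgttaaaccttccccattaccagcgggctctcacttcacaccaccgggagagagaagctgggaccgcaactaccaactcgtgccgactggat

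The motif starts 249 bases before the start in Ckm, 67 before it in Myh4 and 72 before it in Trim63, and neither CAGCTG nor any CANNTG is in the Klhl31 window. CAGCTG, which is its own reverse complement, was in 15.9% of the 15451 windows of all genes tested, of which 12222 had a window. Of the 207 genes whose muscle-rich levels all exceeded the muscle-poor ones (described below), 159 had a window; these genes have 207 windows in all, by coincidence the same number, and 33.3% of them held the motif. Outside the muscle lists, 114 of the 144 such genes had a window, and 25.6% of their 156 windows held it. For CTA and TAG parted by any 4 bases, a loose core of the MEF2 site that reads alike on both strands, the shares were 3.21%, 11.1% and 10.3%. The looser CANNTG, which contains CAGCTG, was in 65.5%, 83.1% and 81.4%. Windows of 1 gene can overlap, and a match is a description of these letters.

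Of 15792 genes, 207 (1.31%) had all 7 muscle-rich levels above all 7 muscle-poor levels, and 10 (0.0633%) had them all below. By size alone, 696 genes (4.41%) had a log2 difference above 1 and 113 (0.716%) one below -1, while the median over all genes was -0.000511. The 3 muscle lists, sarcomere, calcium release and excitation, and muscle energy metabolism, had 82 members tested and held 63 of the 207 genes. The other 144 lay outside these lists, and 132 of the 207 were in no list at all. With a Ckm threshold of 100 or 25 CPM, 80 or 95 of the 207 genes and 0 of the 10 kept their separation. Since Ckm chose the classes, these counts describe the division.

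**Figure D2:**
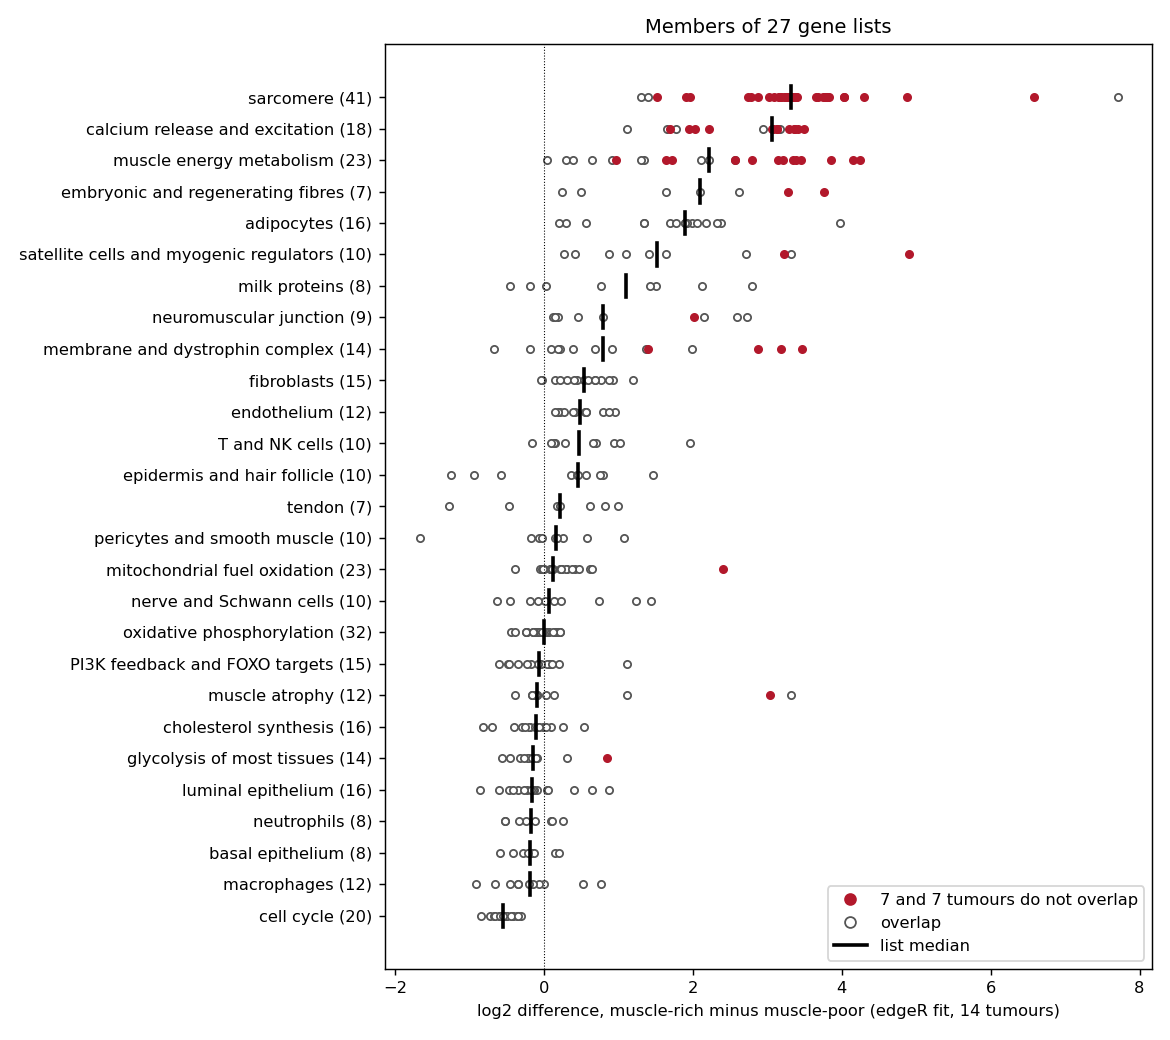
Each point is 1 tested member of 27 gene lists (number of members in brackets), placed by its log2 difference between muscle-rich and muscle-poor tumours from the edgeR fit over 14 tumours; filled points are genes whose classes do not overlap, and the black bar is the list median. Medians run from 3.32 for the sarcomere list to -0.55 for the cell cycle list, and filled points are concentrated in the muscle lists.

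Of 41 sarcomere genes tested, 37 were higher in muscle-rich tumours without overlap, with a list median of 3.32. The giant spring protein titin (Ttn) had the highest counts of the list, at 5405, 10240.0 and 18719 CPM against 80.4, 684 and 2656 CPM. The thin filament ruler nebulin (Neb) reached 722 to 2823 CPM against 10.6 to 459 CPM. Fast troponins and light chains behaved alike: Tnnt3 differed by 3.31 ± 0.61, Tnnc2 by 3.27 ± 0.65 and Myl1 by 3.32 ± 0.66 on the log2 scale. The 4 sarcomere members whose classes overlapped were Myh7, Tnnc1, Ldb3 and Pdlim3.

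Calcium release genes followed, with 13 of 18 higher without overlap and a median of 3.07. The sarcoplasmic reticulum calcium pump Atp2a1 stood at 146, 299 and 564 against 1.3, 22 and 59.9 CPM. The release channel Ryr1 ranged from 143 to 395 CPM in muscle-rich and from 5.24 to 78.1 CPM in muscle-poor tumours. Parvalbumin (Pvalb), the soluble calcium buffer of fast fibres, ranged from 15.3 to 79.4 against 0.249 to 10.2 CPM. The calsequestrins, which store calcium in the reticulum, differed by 3.07 ± 0.47 for the fast form Casq1 and by 1.70 ± 0.29 for Casq2. Vehicle tumours reached 407 CPM for Casq2, against at most 10.9 CPM in muscle-rich tumours.

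Muscle energy genes were less uniform, with 13 of 23 higher without overlap and a median of 2.22. Glycogen phosphorylase Pygm, which frees glucose units from muscle glycogen, stood at 44.8, 89.1 and 188 against 0.998, 7.39 and 19.96 CPM. The muscle enolase Eno3 differed by 2.80 ± 0.36 and myoglobin (Mb), the oxygen store, by 2.57 ± 0.39, neither with overlap. Members that other tissues also use separated less: the adenine nucleotide carrier Slc25a4 ranged from 138 to 315 against 139 to 218 CPM, and the pyruvate dehydrogenase kinase Pdk4 from 47.2 to 237 against 14.3 to 189.6 CPM. The insulin-responsive glucose transporter Slc2a4 did separate, at 13.1 to 54.6 against 2.13 to 10.6 CPM, but vehicle tumours reached 87.3 CPM. The share of all counts that fell on the 3 muscle lists was 1.1% to 3.69% in muscle-rich, 0.0894% to 0.546% in muscle-poor and 0.0844% to 0.428% in vehicle tumours. The vehicle maximum was that of vehicle 6, which held Ckm at 0.187 CPM but the list members Tpm2 and Casq2 at 2376 and 407 CPM. Vehicle 4 and 5, with Ckm at 12.3 and 11.5 CPM, had shares of 0.219% and 0.213%. The share is thus no measure of skeletal muscle alone.

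The muscle-rich tumours differed among themselves in fibre type. Over 6 myosin heavy chain genes, shares were taken of counts divided by gene length. The lengths used ran from 6129 bases for Myh3 to 11873 bases for Myh8, and a greater length lowers a gene's share. Myh4, the fastest type, took 30.3% to 63.2% of the sum in muscle-rich tumours, lowest in relapse 7 and highest in stable 5. The slow myosin Myh7 took 6.81% in relapse 6, 6.57% in relapse 7, 5.31% in relapse 2 and 2.83% in relapse 1. It took 1.2% in relapse 5, 0.193% in relapse 3 and 0.0312% in stable 5. In CPM, Myh7 was at 182, 210.3, 150.2 and 115 in relapse 1, 2, 6 and 7, but at 6.11 in relapse 3 and 1.23 in stable 5, below the highest muscle-poor level of 1.29. Slow myosin RNA thus did not accompany fast myosin RNA in all 7 tumours.

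Slow light chain Myl2 and slow troponin Tnnt1 were highest in relapse 1, 2, 6 and 7 too, but unlike Myh7 their classes did not overlap. Myl2 was at 19.97, 22.6, 14.4 and 12.5 CPM in relapse 1, 2, 6 and 7, and at 0.572 and 0.335 CPM in relapse 3 and stable 5. Tnnt1 was at 29.3, 34, 28 and 21.4 CPM in those 4 tumours and at 4.87 and 7.71 CPM in relapse 3 and stable 5. Relapse 5 held Myl2 at 2.56 CPM and Tnnt1 at 5.47 CPM. The highest muscle-poor levels were 0.217 CPM for Myl2 and 1.87 CPM for Tnnt1. In muscle-poor tumours the mixture was as varied, with Myh4 between 15.7% (stable 3) and 76.3% (stable 1) of the myosin sum, although that sum was as low as 2.06 CPM per kilobase in relapse 4.

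**Figure D3:**
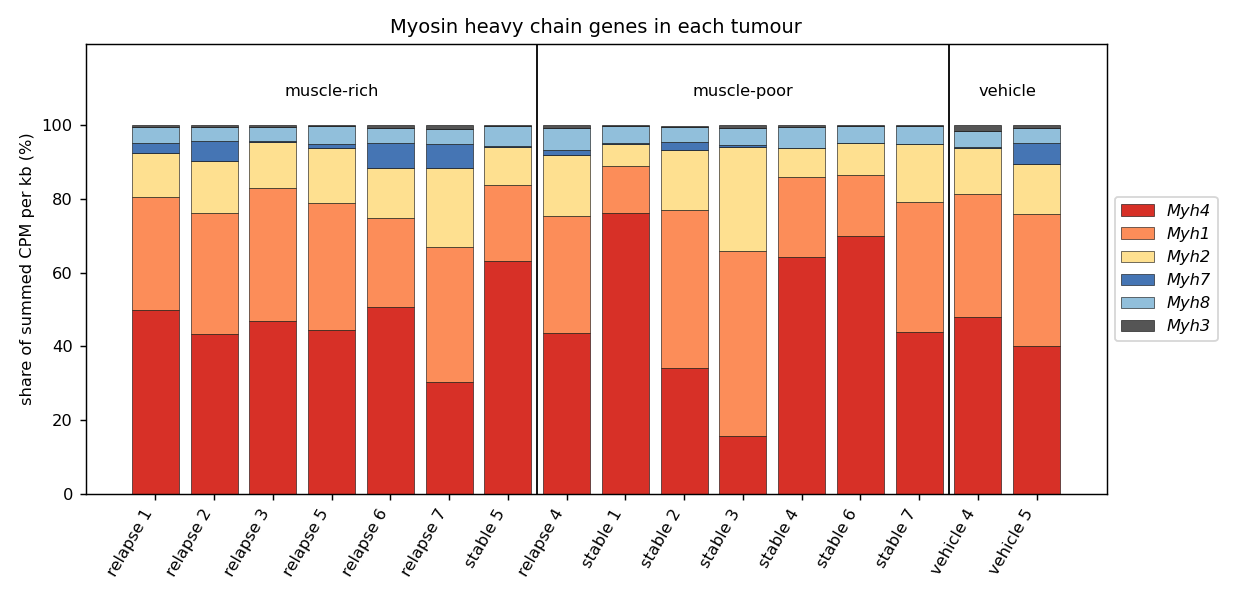
Bars give, for each of 14 treated tumours and for vehicle 4 and 5, the share of summed CPM per kilobase (percent) taken by 6 myosin heavy chain genes, in colours named in the key. Myh4, Myh1 and Myh2 fill most of each bar, and the blue Myh7 band is widest in relapse 6 and 7 (6.81% and 6.57%) and nearly absent in stable 5 (0.0312%).

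Genes of repair and innervation gave a mixed picture. The embryonic myosin Myh3 was low but separated, at 3.87, 11.5 and 21.7 CPM against 0.0998, 0.647 and 2.91 CPM, a difference of 3.76 ± 0.58. The perinatal myosin Myh8 stood at 102, 178 and 402 against 1.5, 15.1 and 56.7 CPM, also without overlap. Both genes lie among myosin genes of similar sequence on chromosome 11, so their counts may include reads that match several of them. Per length, Myh8 took 3.79% to 5.47% of the myosin sum in muscle-rich and 4.08% to 6.12% in muscle-poor tumours. Myh3 took under 1% in all of them. The Myh8 share was 4.39% and 4.2% in vehicle 4 and 5, so Myh8 rose and fell with the other myosin genes. How much of its count came from perinatal fibres was not tested. The other 5 members of the list of embryonic and regenerating fibres overlapped, among them the cardiac actin Actc1 (0.484 to 1.82 against 0.0538 to 0.714 CPM) and the stress gene Ankrd1 (5.31 to 33.1 against 6.29 to 25.8 CPM).

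Of 16 satellite cell and myogenic genes, 10 passed the filter on low counts, so the rest were barely measured. The satellite cell factor Pax7 was at 0 to 0.447 CPM in muscle-rich and 0 to 0.0549 CPM in muscle-poor tumours, and the activation factor Myod1 at 0.104 to 2.79 against 0 to 0.165 CPM. Myogenin (Myog), the factor of fusing myoblasts, reached 2.68 CPM and overlapped. Desmin (Des), the intermediate filament of fibres, separated at 91 to 279 against 6.67 to 45.7 CPM, as did the TEAD cofactor Vgll2, at 0.677 to 4.23 against 0 to 0.11 CPM. Vgll2 had the largest difference of this list, 4.90 ± 0.50.

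Of 9 neuromuscular junction genes tested, 1 separated: Ache, the enzyme that clears acetylcholine, at 0.789 to 4.3 against 0.14 to 0.704 CPM. The acetylcholine receptor subunit Chrna1 ranged from 1.89 to 7.67 against 0.15 to 2.42 CPM and the receptor kinase Musk from 1.45 to 5.82 against 0.216 to 1.98 CPM, both with overlap. The subunit Chrnb1 was level, at 20.3 against 18.5 CPM (medians), as was the nerve-derived organiser agrin (Agrn), at 273 against 246 CPM. The list median was 0.80.

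The 2 best known atrophy ligases, which tag muscle proteins for degradation, parted. Trim63 (MuRF1, chromosome 4, 134315120 to 134329629) stood at 5.56, 10.7 and 25.4 CPM in muscle-rich and 0, 1.29 and 4.01 CPM in muscle-poor tumours, without overlap and with a difference of 3.04 ± 0.67. Fbxo32 (atrogin-1) stood at 234, 305 and 441 against 314, 363 and 784 CPM, overlapping and with a difference of -0.39 ± 0.21. Vehicle tumours held 133 to 726 CPM of Fbxo32, the most in vehicle 6, which had Ckm at 0.187 CPM. Fbxo32 RNA was thus also high in tumours with little Ckm, and its cell source was not tested. Of the 12 atrophy genes, 1 separated, and the median was -0.09, near that of all genes. Myostatin (Mstn), a secreted inhibitor of muscle growth, was at 8.61 CPM in stable 5 and 3.76 CPM in relapse 1. Among muscle-rich tumours relapse 7 alone, at 0.395 CPM, lay under the highest muscle-poor level of 0.714 CPM.

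Of 14 genes of the membrane and dystrophin complex, 4 separated (1.31% of all genes did). Alpha-sarcoglycan (Sgca) differed by 3.47 ± 0.71, muscle caveolin (Cav3) by 2.88 ± 0.36 and the muscle calpain Capn3 by 1.40 ± 0.22, each without overlap. Vehicle tumours reached 11.9 CPM for Sgca and 6.59 CPM for Cav3, above the muscle-rich maxima of 4.84 and 2.73 CPM. Dystrophin itself (Dmd) was at 103 to 248 against 61.1 to 107 CPM and the repair protein dysferlin (Dysf) at 50.9 to 86.3 against 12.4 to 85.9 CPM, both overlapping. The list median was 0.79, and it was 0.48 without relapse 1 and stable 5.

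Among separated genes outside the muscle lists with a mean log2 CPM of 1 or more, leaving out predicted genes, the largest differences were those of genes known from muscle. Abra, an actin-binding protein of muscle, stood at 3.87, 8.79 and 17.9 against 0.0499, 0.495 and 1.26 CPM, a difference of 4.08 ± 0.52. Smtnl1, a smoothelin-like protein, differed by 4.08 ± 0.60 and Xirp1, an actin-binding protein of muscle junctions, by 4.04 ± 0.56. Apobec2, a muscle relative of the cytidine deaminases, differed by 3.83 ± 0.39 at 4.93 to 23.2 against 0.269 to 1.81 CPM. Fbxo40, an F-box protein that in muscle directs the insulin receptor substrate IRS1 to degradation, stood at 5.13, 8.44 and 13.7 against 0.0998, 0.391 and 1.26 CPM.

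The remaining genes named by the same rule were Myh13, Alpk3, Lrrc2, Fsd2, Hspb7 and Synpo2l, whose differences ran from 3.46 to 3.70; Myh13 is the myosin of eye muscles, Hspb7 a small heat shock protein and Synpo2l a Z-disc protein. Myh13 lies among myosin genes of similar sequence, so its counts of 11.6 to 43.1 CPM in muscle-rich tumours may include reads that match several of them. At the small end, Rhobtb2, Mum1 and the general calpain Capn1 also separated, with differences of 0.48, 0.44 and 0.23. For Capn1 that was 46.4 to 49.7 against 26.2 to 46 CPM, a narrow gap.

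Adipocyte genes were higher on the whole but did not separate. All 16 had a log2 difference above 0 (49.9% of all genes did), 13 had one above 1 (4.41% of all genes), and 0 of 16 were free of overlap, with a median of 1.89 that was 1.22 without relapse 1 and stable 5. The hormone adiponectin (Adipoq) was at 78.5, 66.7 and 66.1 CPM in relapse 1, relapse 7 and stable 5 but at 2.5 and 5.03 CPM in relapse 2 and 6, inside the muscle-poor range of 1.82 to 19.2 CPM. Carbonic anhydrase Car3, abundant in fat and in slow muscle, ranged from 109.7 to 665 against 20.5 to 129 CPM. The summed level of the list was 402 to 2898 CPM in muscle-rich and 279 to 935 CPM in muscle-poor tumours. The part of fat tissue in the division was not tested.

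Brown fat RNA was most abundant in 3 muscle-rich tumours. Ucp1, the uncoupling protein that makes heat in brown fat mitochondria, was at 181, 95.1 and 52.7 CPM in relapse 1, 7 and 5, at 10.4 CPM in the muscle-poor tumour stable 6, and under 1 CPM in the other 4 muscle-rich tumours. Cpt1b, the carnitine palmitoyltransferase of muscle and brown fat, separated at 9.8, 11.7 and 53 against 2.94, 4.03 and 5.1 CPM, with 53, 35.7 and 15.7 CPM in the same 3 tumours. The cytochrome oxidase isoform Cox8b, likewise of muscle and brown fat, was at 24.3, 16.1 and 5.71 CPM in those 3, and the other muscle-rich tumours held 2.09 to 2.46 CPM. How much of Cpt1b and Cox8b came from either tissue was not tested.

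Other host tissues had list medians nearer 0 than the muscle lists. Over tendon, nerve and Schwann cell, endothelial, pericyte and smooth muscle, and fibroblast lists, 0 of 54 tested members separated, which is near the 1.31% of all genes, as are the other counts of 0 below. The medians were 0.22, 0.07, 0.49, 0.16 and 0.54. The tendon gene Tnmd was near 0 in most tumours (0.0484 to 2.14 against 0 to 3.04 CPM). All 12 endothelial genes lay above 0, led by Vwf at 0.96 ± 0.33. The fibroblast median was -0.01 without relapse 1 and stable 5, the latter with a fibroblast score of 1.63. The pericyte and smooth muscle median turned to -0.21 with the label as a term.

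Luminal and basal genes of the tumour epithelium had medians near 0. Of 16 luminal genes 0 separated (median -0.16), with luminal keratins Krt8 at 186 against 222 and Krt18 at 365 against 409.9 CPM (medians), and the adhesion molecule Epcam at 577 against 663 CPM. Of 8 basal genes 0 separated (median -0.19). Milk protein genes were widely spread: 4 of 8 had a log2 difference above 1 and the median was 1.09, but it was 0.03 with the label as a term and -0.22 without relapse 3. The whey protein gene Wap ranged from 0.615 to 262 CPM in muscle-rich and 0.348 to 86.6 CPM in muscle-poor tumours. Epidermis and hair follicle genes, which would mark skin, had a median of 0.45 over 10 genes with 0 separated, and their summed level was 467 to 4470.5 CPM in muscle-rich and 16.8 to 2974 CPM in muscle-poor tumours; the lowest was that of stable 1. With the label as a term this median turned to -0.62. Macrophage, neutrophil, and T and NK cell lists had medians of -0.19, -0.18 and 0.47, again with 0 members separated.

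**Figure D4:**
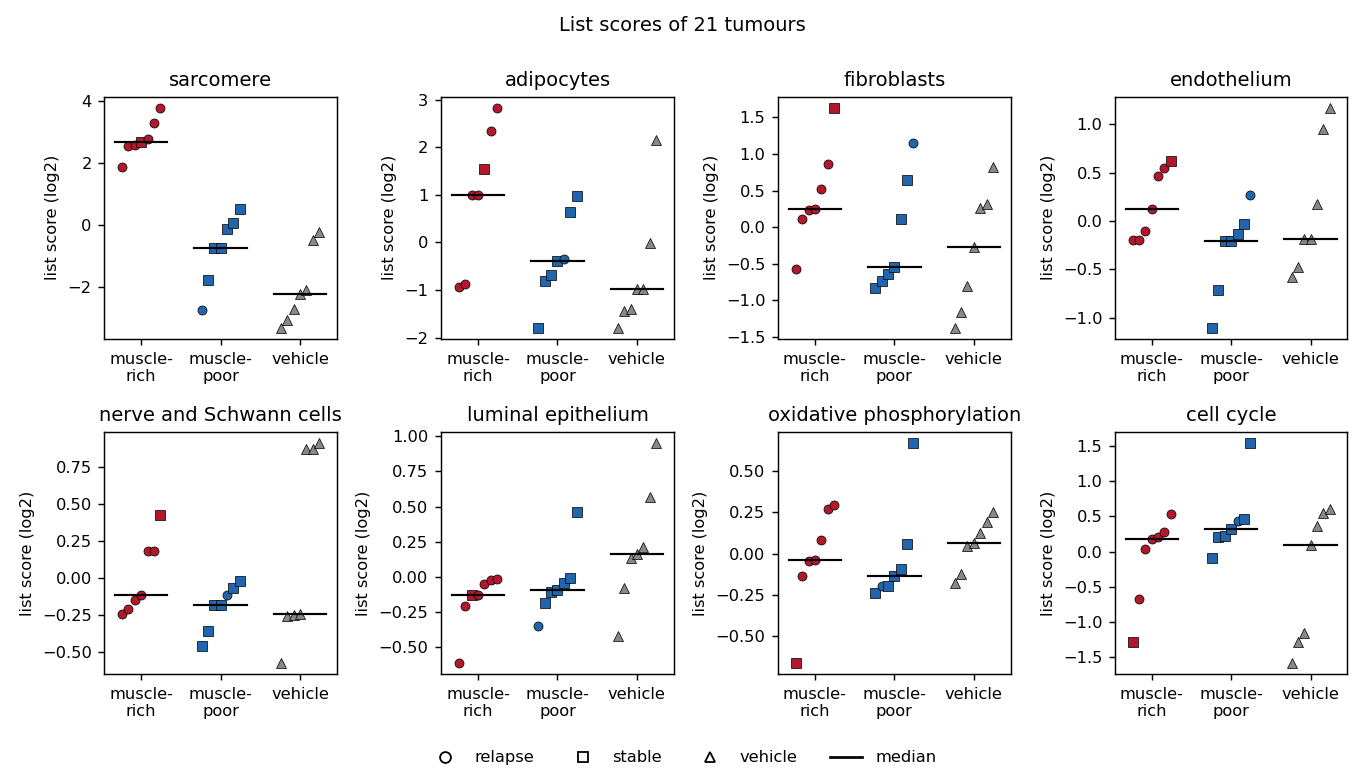
Each panel plots a list score, the mean log2 CPM of the list's members minus its mean over 21 tumours, with a point per tumour and a line at the median of the muscle-rich, muscle-poor and vehicle columns (circles relapse, squares stable, triangles vehicle). Of the lists plotted, only the sarcomere list, which holds the class markers Myh4 and Acta1, shows muscle-rich points clear of the muscle-poor ones. Adipocyte scores of relapse 2 and 6 (-0.95 and -0.87) lie among the muscle-poor points. Some lists not plotted were also clear, by lowest muscle-rich and highest muscle-poor score: neuromuscular junction (0.403, 0.361), satellite cells (0.731, 0.375), membrane (0.199, -0.108) and atrophy (0.174, 0.116).

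Cell cycle genes were lower throughout, by an amount that varied with the tumours and terms of the fit. All 20 had a log2 difference below 0, from -0.84 for the checkpoint kinase Bub1 to -0.31 for the topoisomerase Top2a, with a median of -0.55 and 0 of 20 separated. The proliferation marker Mki67 stood at 354, 836 and 998 CPM in muscle-rich and 615, 1054 and 1189 CPM in muscle-poor tumours. The list score was -1.28 in stable 5 and -0.67 in relapse 1, the muscle-rich tumour with the most Ckm, against 0.04 to 0.54 in the other 5 muscle-rich tumours. Stable 1 had the highest score, 1.54. The median was -0.29 without relapse 1 and stable 5, and -0.23 without stable 1 and relapse 4. It was -1.04 with the label as a term, a value that rests on relapse 4 and stable 5. Apart from stable 5 and relapse 1, the muscle-rich tumours lay within the muscle-poor range of -0.09 to 1.54.

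The 10 genes below without overlap, 0.0633% of all genes, included 3 of the centromere. That grouping was made after the genes were seen, and centromere genes as a set were not counted. Oip5, a subunit of the Mis18 complex that loads the centromeric histone, stood at 2.12, 7.84 and 8.63 CPM in muscle-rich and 8.74, 9.27 and 35.9 CPM in muscle-poor tumours, a difference of -1.10 ± 0.39; the highest value was that of stable 1 and the lowest that of stable 5. Its locus overlaps Nusap1, and without a stated strand setting their reads cannot be told apart. The kinetochore genes Cenpl and Cenpq differed by -0.60 ± 0.13 and -0.59 ± 0.19. The small GTPase Rhoa was at 209 to 278 against 305 to 353 CPM, and Fntb, the beta subunit of the enzyme that farnesylates proteins such as Ras, at 11.1 to 17.2 against 17.3 to 22 CPM. Wsb1, Morf4l1, Fmr1, Zc3h14 and the predicted gene D430020J02Rik completed the set, with differences from -0.54 to -0.16. For Zc3h14 the nearest tumours of the classes both read 89.9 CPM after rounding.

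Metabolic lists outside the muscle isozymes had medians near 0. Of 32 oxidative phosphorylation genes 0 separated and 16 lay above 0, with a median of -0.00454. Of 23 genes of mitochondrial fuel oxidation, Cpt1b alone separated, and the median was 0.12. Among 14 glycolysis genes used by most tissues, the insulin-regulated hexokinase Hk2 alone separated, at 73.9, 100.2 and 158 against 44.9, 60.3 and 67.7 CPM (0.85 ± 0.17). Vehicle tumours ranged from 29.3 to 154 CPM for Hk2. Pyruvate kinase Pkm and lactate dehydrogenase Ldha differed by -0.27 and -0.16. Of these 14 genes, 2 lay above 0. Their median of -0.15 was -0.63 with the label as a term and 0.02 without relapse 1 and stable 5. The cholesterol synthesis median was -0.11. In 15 genes of PI3K feedback and FOXO response the median was -0.06 with 0 separated. The mouse gene Pik3ca was at 253 to 929 against 341 to 1380.5 CPM. Whether its counts include reads of the model's activated PIK3CA is not stated. Irs2 was at 30.1 to 69.3 against 31.4 to 62.4 CPM, and the RAS GTPase-activating gene Nf1 at 241 to 297 against 208 to 597 CPM.

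Within the classes, 67 of 15791 genes (0.424%) rose with Ckm at an adjusted p under 0.05 (quasi-likelihood test of edgeR, Benjamini-Hochberg over all genes), and 0 (0%) fell. In this fit a slope of 1 means the same log2 change as Ckm among tumours of 1 class. Of the 67, 43 were in the 3 muscle lists and 24 outside them, and 64 were also among the 207 genes without overlap. The strongest outside the lists was Klhl31, a kelch-like protein needed for normal muscle fibres (chromosome 9, 77636732 to 77660125), which stood at 25, 44.8 and 91 CPM in muscle-rich and 0.0998, 3.43 and 9.75 CPM in muscle-poor tumours. Its slope was 0.91 ± 0.09 log2 units per log2 unit of Ckm (n = 14, adjusted p = 7e-05, edgeR). The perinatal myosin Myh8 followed with a slope of 0.84 ± 0.09 (adjusted p = 0.000163, edgeR). Its counts may include reads that match neighbouring myosin genes.

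The slopes of other genes outside the lists were close behind. Ano5, a membrane protein of muscle repair, rose by 0.93 ± 0.10 (adjusted p = 0.000339, edgeR). Art1, a surface ADP-ribosyltransferase of muscle whose locus overlaps Nup98 and Chrna10, rose by 0.92 ± 0.12 (adjusted p = 0.00118, edgeR). Smyd1, a methyltransferase that takes part in myosin assembly, rose by 0.58 ± 0.08, Fbxo40 by 0.61 ± 0.08, Mypn, a Z-disc protein, by 0.79 ± 0.11 and Lrrc2 by 0.75 ± 0.09, with adjusted p from 0.000694 to 0.0023 (edgeR). Of the repair and atrophy lists, Myh3, Trim63 and Myf6, the regulatory factor kept in adult fibres, also rose, with slopes of 0.68, 0.93 and 1.06. Of the 14 membrane and dystrophin genes, 1 was called. No member of the adipocyte, stromal, epithelial, immune or cell cycle lists, or of the metabolic lists outside the muscle lists, was called. Such counts of 0 are near the 0.424% called among all genes.

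The calls rested largely on the tumours with least Ckm, both the 24 outside the muscle lists and the 43 inside them. Without relapse 4 and stable 2, the farthest from the median in log2 Ckm, 15 genes were called and 0 of them were outside the muscle lists; without relapse 4 alone there were 40, of which 12 were outside. The 7 muscle-rich tumours alone gave 0 calls by edgeR (356 genes with a positive slope had an unadjusted p under 0.05) and the 7 muscle-poor tumours alone gave 4. Beside the 0 genes that fell by edgeR, 173 had a negative slope at an unadjusted p under 0.05, and the DESeq2 Wald test called 1. Among genes with a mean log2 CPM of 1 or more, the lowest p was that of Nov, a matricellular protein, with a slope of -0.49 ± 0.12 (adjusted p = 0.249, edgeR); its level was 106 CPM in relapse 4 and at most 15.9 CPM in the other 13 tumours, and without relapse 4 its slope was 0.092. Wwp2, a ubiquitin ligase, and the lamin gene Lmna came next, with slopes of -0.20 ± 0.05 and -0.10 ± 0.03, neither called.

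Separation and slope did not go together for every gene. Among separated genes, the median slope was 0.63 for the 62 in the muscle lists apart from Ckm and 0.30 for the 144 outside, where 57 had a slope below 0.2. Fhl1, a LIM protein of muscle, separated at 38.8, 102 and 138 against 8.82, 12.7 and 23.8 CPM (2.52 ± 0.29), yet its slope was 0.04 ± 0.08. The same held for the actin crosslinker Flnc (difference 2.47 ± 0.35, slope 0.03 ± 0.10) and the Z-disc protein Synpo2 (difference 1.99 ± 0.31, slope -0.02 ± 0.09). These 3 genes were chosen after their values were seen. Vehicle tumours reached 253 CPM for Flnc and 563 CPM for Synpo2, in tumours with Ckm under 0.5 CPM.

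**Figure D5:**
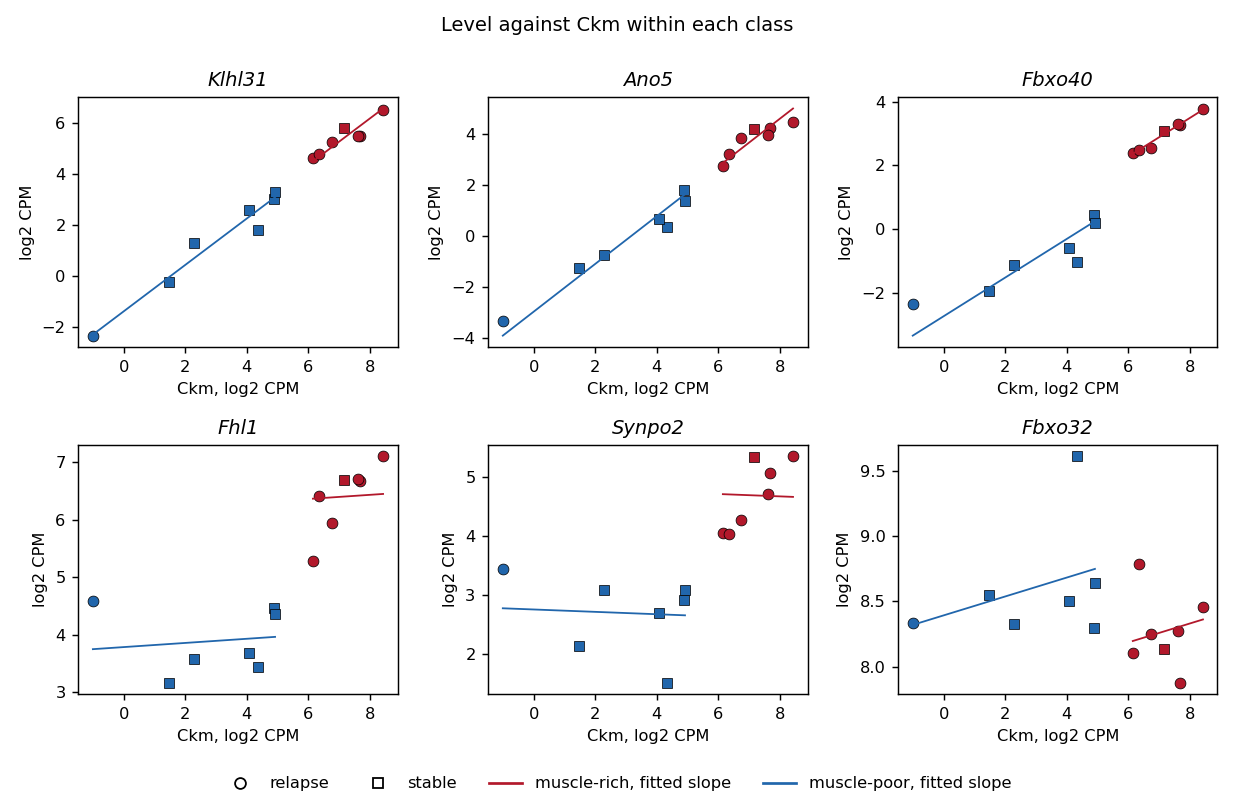
Each panel plots 1 gene (log2 CPM) against Ckm (log2 CPM) for 14 treated tumours, with the fitted line of each class sharing 1 slope; red is muscle-rich, blue muscle-poor, circles relapse and squares stable. Klhl31, Ano5 and Fbxo40 climb with Ckm (slopes 0.91, 0.93 and 0.61), whereas Fhl1, Synpo2 and Fbxo32 lines are nearly flat (0.04, -0.02 and 0.07).

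Vehicle tumours, which the rule did not use, gave a second view of the same genes. Vehicle 4 and 5 held Ckm at 12.3 and 11.5 CPM and the other 5 at 0 to 0.457 CPM. Of all genes, 758 (4.8%) were higher in vehicle 4 and 5 than in every other vehicle tumour. Of the 207 genes, 76 (36.7%) were, and of the 144 outside the muscle lists 36 (25%). Klhl31 was not sharply divided there, at 3.87 and 2.66 CPM against 0.183 to 8.25 CPM. Vehicle 4 and 5 were singled out by Ckm, so this is a description.

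Between the labelled groups, 7 relapse and 7 stable tumours, no gene was called in either direction (0% and 0% of 15792 genes; 751 at an unadjusted p under 0.05; lowest adjusted p = 0.125, edgeR's quasi-likelihood test). The DESeq2 Wald test called 6 genes, all higher in relapse tumours: Cryab, Myh7, Myh6, Myl2, Tnnc1 and Ankrd2. Cryab, a small heat shock protein, was at 23.5, 31.5 and 56 CPM in muscle-rich and 11.2, 15.8 and 17.3 CPM in muscle-poor tumours; between relapse and stable it differed by 1.12 ± 0.25 (adjusted p = 0.725, edgeR). Its locus overlaps Hspb2, and vehicle 2, with Ckm under 0.5 CPM, held 68.7 CPM. Outside the muscle lists and with a mean log2 CPM of 1 or more, the next lowest p-values belonged to the tubulin Tuba8 and to Cpt1b on the relapse side and to Tmem87a, Tmem87b and Lsm8 on the stable side, none called. For Lsm8, a subunit of a spliceosomal RNA-binding ring, stable 1 stood alone at 1481 CPM, with at most 21.8 CPM in the other treated tumours. Myh7 differed by 7.31 ± 1.31 between the labels (adjusted p = 0.125, edgeR), and was called when relapse 4 was left out, with Myh6, Myl2 and Ankrd2. Of the 82 tested members of the muscle lists, 0 were called by edgeR, with a sarcomere median of 1.71 between the labels; relapse 4, at 0.399 CPM of Ckm, and stable 5, at 143 CPM, went against the other tumours of their labels.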

How the data were processed

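Polyadenylated RNA of 21 tumours was sequenced as stranded libraries with single-end reads of 50 nucleotides, per the labels' protocols. Build mm10, STAR 2.5.2a, Picard 2.9.2, SAMtools 1.3.1 and edgeR are listed in the submitters' processing notes. The annotation, the strand setting and the handling of multiply matching reads were not stated there. A single table of raw counts per gene was deposited by the authors. In 10202 of its 24028 lines an extra leading cell stood before the row, so each was read from its last 25 cells; 14 genes lacked a symbol and stayed in the totals.

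Samples were grouped by their titles. The members and the gene lists were chosen with earlier results of these data known. CPM of column totals set the classes. Elsewhere counts were filtered with filterByExpr by label over 21 tumours (15792 genes kept), scaled by TMM and fitted with edgeR 4.0.16 (R 4.3.3), whose quasi-likelihood test, adjusted by Benjamini-Hochberg over all genes tested, called genes at an adjusted p under 0.05. Log2 CPM used a prior count of 2. The division was fitted over 14 tumours with class as the term, and its p-values were not used. The slope came from class plus log2 Ckm centred within class, leaving Ckm out of the tests, and relapse against stable from all 21 tumours in 3 groups without covariates. Library depth limits low genes: at these totals 1 count is worth under 0.1 CPM. No 2 tumours agreed within sampling noise (chi-square per degree of freedom at least 18.0). The tests were tried on simulated counts with known changes.

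Genes were named by rule: 18 fixed genes; the 12 highest and 12 lowest differences among separated genes outside the muscle lists whose mean log2 CPM was 1 or more, without predicted genes; the 3 most abundant and all separated members of each list; and, with the same limits on level and lists, the 8 called genes of lowest p in each direction of each test, or the 3 lowest p-values where fewer than 3 were called. Where a list had many, those most used in the text are given, and genes chosen after seeing their values are said to be so; a few genes the rule names are not reported here. Gene positions and promoters are from RefSeq (GRCm38.p6, the assembly of mm10), matched by Entrez identifier for 15762 genes tested; 12222 had a promoter window. Alternatives were other size factors, no filter, other Ckm thresholds, the 3 markers in place of Ckm, the label as a term, single classes, DESeq2 1.42.0, voom of limma 3.58.1 with a random effect for title code, and leaving tumours out. Those that kept 1 tumour per code, used voom for the slope, or left out relapse 1 with stable 5 or stable 1 with relapse 4 were added after seeing the data.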

Additional observations from a re-analysis of the deposited data

Results flagged for a closer look

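Among 126 groups of 7 tumours examined (42 values, each in relapse, stable and vehicle), 23 held a highest or lowest tumour farther from its nearest neighbour than Dixon's 95% limit; chance flags about 1 in 20 groups. Values are list scores or log2 CPM with a prior count of 2.

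Relapse 4 gave 13 of these, all as the lowest relapse tumour in muscle measures. Its scores were -2.73 for the sarcomere list (next lowest relapse tumour 1.88), -2.27 for calcium release and excitation (next 1.48), -1.93 for muscle energy metabolism (next 1.24) and -0.72 for muscle atrophy (next 0.174). Its log2 CPM was -1.01 for Ckm (next 6.15), 2.51 for Myh4 (next 8.65), 7.4 for Acta1 (next 8.91), 2.07 for Myh1 (next 8.67) and 1.37 for Myh2 (next 7.83). It was -2.33 for Myh3, -3.34 for Myog, -2.01 for Chrna1 and -3.34 for Trim63, with the next lowest at 1.99, -0.822, 0.989 and 2.5. Relapse 4 was the relapse tumour below the Ckm threshold, and these measures include Ckm, both other markers and lists that hold them. The 13 flags are therefore not independent of that threshold or of each other, and the chance rate does not apply to their number.

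Stable 1 stood apart from the other stable tumours, low in the basal epithelium (-2.68), epidermis and hair follicle (-4.75) and neutrophil (-1.07) scores, and high in Fbxo32 (9.61, next 8.64) and in Nf1 (9.22, next 8.37). Stable 7 was high in the luminal epithelium score (0.458), and relapse 1 low in the cell cycle score (-0.668, next 0.0382). Of the vehicle tumours, vehicle 6 was low in the glycolysis score (-0.405), vehicle 3 high in the cholesterol synthesis score (1.92) and vehicle 7 low in Acta1 (7.04, next 7.72).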

How the results depend on the processing

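Slopes were followed across the alternatives for 46 named genes, and no called slope among them changed sign. The medians of 11 of 27 lists did change sign under at least 1 alternative. With the label as a term these included epidermis (-0.62), pericytes and smooth muscle (-0.21) and PI3K feedback (0.007). Without relapse 1 and stable 5 they included fibroblasts (-0.01), glycolysis (0.02) and atrophy (0.02). Without relapse 4 and stable 5 they included basal epithelium (0.02) and neutrophils (0.19). Milk proteins (-0.22) changed without relapse 3 and nerve (-0.05) without relapse 2. Oxidative phosphorylation lay from -0.16 to 0.12. Of the 207 genes higher without overlap, 206 remained with DESeq2 size factors or upper quartile factors and 202 with library totals alone; the 7 tumours highest in the 3 markers were the same tumours. The count was 127 with a Ckm threshold of 100 CPM (80 of them among the 207), 118 with 25 CPM (95 among the 207) and 461 with 1 tumour per title code, where fewer tumours make separation easier, and 211 to 243 when 1 tumour was left out. The 10 lower genes became 17 without the filter, 4 with a threshold of 25 CPM and 9 with 100 CPM (0 of the 10 in either), 7 with upper quartile factors and 14 with library totals (6 of the 10 in each), 64 without relapse 4 and stable 5, 232 with 1 tumour per code, 85 without stable 1 and relapse 4, and 10 to 54 when 1 tumour was left out (54 without relapse 4); fewer tumours again make separation easier. With the label as a term, list medians were 4.58 for sarcomere, 4.15 for calcium release, 1.24 for membrane and dystrophin genes, -1.04 for cell cycle and -0.63 for glycolysis. These medians rest on relapse 4 and stable 5, each alone in its class under its label. Without relapse 1 and stable 5 the membrane median was 0.48. The cause of these shifts was not tested.

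The 67 genes that rose with Ckm numbered 0 in muscle-rich and 4 in muscle-poor tumours alone, 15 without relapse 4 and stable 2, 30 with 1 tumour per code, 89 by DESeq2's Wald test, and 40 to 79 when 1 tumour was left out (40 without relapse 4, 38 of them among the 67). By voom with title code as a random effect, 54 genes rose, 18 of them outside the muscle lists. The 0 genes that fell became 1 with the DESeq2 Wald test, and 0 to 1 when 1 tumour was left out. Between relapse and stable the 0 calls became 6 by DESeq2's Wald test, and 0 to 4 when 1 tumour was left out: 4 without relapse 4 and 1, Fhl1, without stable 5. With a replicate block the count was 0 (550 genes at an unadjusted p under 0.05). Replicate numbers did not pair the tumours: correlations of same-numbered tumours ran from -0.26 to 0.18, and 0 of 7 relapse tumours correlated best with their own number. Among named genes, slopes lost their call in 70 fits, and in 46 more that left out 1 tumour, and gained one in 6 and 4. Low counts limit Pax7, Myod1 and Myf5, which did not pass the filter.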

Other observations

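Gene families were counted among the separated genes after their members had been seen, as a description. Of 14 Asb genes tested, adaptors that recruit ubiquitin ligases through a SOCS box, 6 were higher in muscle-rich tumours without overlap, against 1.31% of all genes: Asb2, Asb5, Asb10, Asb11, Asb14 and Asb16. Their levels were low, with muscle-rich medians of 0.725 (Asb16) to 5.48 CPM (Asb2), and Asb5 alone rose with Ckm within the classes (slope 0.57 ± 0.11, adjusted p = 0.0467, edgeR). Of 33 Klhl genes, substrate adaptors of cullin ligases, 4 separated (Klhl31, Klhl34, Klhl40 and Klhl41) and 3 were called by slope. Of 51 Trim genes, 3 separated: Trim54, Trim63 and Trim72, the last a membrane repair protein. The same 1.31% of all genes is the background of these counts and of those of the channels below.

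Ion and water channels were also among them. Of 57 potassium channel genes 5 separated, including Kcnj11, the pore of the ATP-sensitive channel, at 0.622 to 4.02 against 0 to 0.33 CPM, and of 10 sodium channel genes 3 did, including the muscle channel Scn4a at 4.9 to 19.1 against 0 to 2.21 CPM. Aqp4, the water channel of fast fibres, was at 0.958 to 5.73 against 0.0869 to 0.603 CPM, and the neuronal nitric oxide synthase Nos1, which docks to the dystrophin complex, at 0.934 to 4.53 against 0.0538 to 0.503 CPM. Vehicle 7, with Ckm at 0 CPM, held Aqp4 at 9.32 CPM.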
